A study of Mus musculus with 14 samples.

Results

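The expression of 35 genes of the Fanconi anaemia pathway, homologous recombination and mismatch repair was described in mSCC-38 cells. These are a mouse line isolated from a squamous carcinoma of the skin that the carcinogen DMBA and the tumour promoter TPA had raised. The members are a list of gene names drawn up with earlier results of these data known. They are 35 of 34836 gene names on the array, and all 35 passed the filter on dim probes, as did 21300 gene names in all. Each gene was read from its brightest probe as log2 of the scanner's processed signal minus the 75th percentile of its array, which is the scale of every level below. A difference on this scale is a difference in level, and a log2 difference of -1 is a halving.

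The study held 4 groups. Cells received Si1AK (4 arrays) or Si2AK (3 arrays), distinct siRNAs directed at the transcript AK144841, or the control siRNA SiC (3 arrays). These groups were transfected with RNAimax and harvested after 72 h. Cells of the NT group (4 arrays) were not transfected, and the labels give no harvest time for them. All groups were the same cell line in the same medium. The labels do not state whether replicates came from different dishes, so every p-value below reflects the spread among these samples, and that spread may be technical. The targeted transcript was not analysed here, and the knockdown is therefore unchecked. In a bulk measurement of this kind, fewer cells of a type and less RNA per cell cannot be told apart.

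Of 11 keratinocyte markers, Krt5, Krt14, Krt17, Krt18, Krt6a, Trp63, Itga6 and Epcam were well above background on all 14 arrays, Krt8 on 13, Dsg3 on 8 and Cdh1 on 2. Markers of other cell types were measured as well: 4 of 9 fibroblast markers (among them Vim and Pdgfra), 4 of 8 leukocyte markers (Cd3e, Cd68, Itgam and Cd14), 3 of 5 endothelial markers (among them Kdr) and 2 of 6 melanocyte markers (Mitf and Tyr) were well above background on all 14 arrays. Ptprc of leukocytes was so on 3 arrays and Tyrp1 of melanocytes on 0. Pecam1 and Cdh5 of endothelium and Col1a1 and Col1a2 of fibroblasts were so on all 14. There were 2 arrays that stood apart. Their median processed signal was 107.5 on Si2AK replicate 2 and 270.9 on SiC replicate 1, against 23.5 to 58.7 on the other 12. They also had 84.9% and 90.5% of probes well above background, against 52.7% to 60.1%. The arrays lay on 2 slides of 7. Slide 1 held 1 SiC array and slide 2 held 1 Si2AK array, so values of these groups within those slides rest on a single array.

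The Fanconi pathway repairs DNA crosslinks that join both strands of the helix. A core complex of FANC proteins with the ubiquitin ligase FANCL and its partner UBE2T marks the FANCD2 and FANCI pair, which clamps onto DNA at stalled forks, and the crosslink is then cut out. Homologous recombination restores the broken strand from the sister chromatid: the ends are trimmed, BRCA1, PALB2 and BRCA2 prepare the trimmed strand for pairing, and RAD54 motors and further cofactors help it pair with the template. Mismatch repair removes wrongly paired bases behind the fork, and dividing cells such as those of the skin's basal layer call on these pathways during and after DNA replication.

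The probes of the 3 members that fell with both siRNAs against SiC, Rad54l, Palb2 and Fancc, are shown with that of Rad51c, the 1 member that rose in any comparison. Each is the first 30 bases of a 60-base probe as deposited, 5′ to 3′, with runs of at least 4 TG units in capitals. In mm9, the build of the array's annotation, they lie at chr4:115769618-115769677 (Rad54l), chr7:129251027-129251086 (Palb2), chr13:63412845-63412885 (Fancc, 41 bases of the 60 placed) and chr11:87190997-87191056 (Rad51c), all on the minus strand. No annotation of mm9 was used here, so their exons were not assigned.
Rad54l probe: ctgggagaaaatcatcaagaagggctgcat
Palb2 probe: tcacttgctagctggacaaaaggatggaaa
Fancc probe: agaaatgctgcaaggcaccactatagtgga
Rad51c probe: TGTGTGTGTGTGTGTGgtggtggtggtgtt

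The 250 bases upstream of the start of the same 3 genes that fell are given from RefSeq (GRCm38.p6), with CCAAT letters (CCAAT, either strand) and GC boxes (GGGCGG, either strand) in capitals. They are chr4:116123691-116123940 for Rad54l, chr7:122132947-122133196 for Palb2 and chr13:63431746-63431995 for Fancc, all minus strand.
Rad54l promoter: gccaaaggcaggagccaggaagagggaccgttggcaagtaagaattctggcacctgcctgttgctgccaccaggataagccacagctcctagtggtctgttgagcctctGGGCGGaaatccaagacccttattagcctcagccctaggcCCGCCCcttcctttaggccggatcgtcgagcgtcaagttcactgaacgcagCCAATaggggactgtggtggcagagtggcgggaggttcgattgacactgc
Palb2 promoter: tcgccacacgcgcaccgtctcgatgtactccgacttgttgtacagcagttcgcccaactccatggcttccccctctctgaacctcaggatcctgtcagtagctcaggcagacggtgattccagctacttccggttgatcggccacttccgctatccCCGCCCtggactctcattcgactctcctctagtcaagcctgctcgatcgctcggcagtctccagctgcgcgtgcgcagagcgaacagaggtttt
Fancc promoter: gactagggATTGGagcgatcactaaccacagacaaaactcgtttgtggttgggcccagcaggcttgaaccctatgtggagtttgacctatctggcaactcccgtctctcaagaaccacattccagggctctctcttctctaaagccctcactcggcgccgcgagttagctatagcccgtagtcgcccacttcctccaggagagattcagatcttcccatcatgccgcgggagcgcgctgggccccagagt
Rad54l held 2 GC boxes and a CCAAT in this stretch, Palb2 held 1 GC box and Fancc 1 CCAAT.

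Promoters of 27 of the 35 members were matched in RefSeq and searched over 300 bases, 250 before and 50 after the start. E2F letters (TTTCCCGC, TTTGGCGC, TTTGCCGC or TTTCGCGC, either strand) were in 6 of the 27 (22.2%), against 2.32% of 27025 promoters of the same length. CCAAT was in 63.0% of the members and 37.9% of all, the GC box in 66.7% and 35.9%, and the CHR letters (TTTGAA or TTCGAA) in 11.1% and 19.4%. An E2F match and a GC box can share bases. Among the 12 matched members that fell with Si2AK against SiC, 2 held E2F letters (16.7%), against 4 of the 15 other matched members (26.7%). A match is a description of letters and no site, and no match says only that the letters are not in this window. Rad54l, Palb2 and Fancc had no E2F match. The 6 matches are shown in 30 bases each with the E2F letters in capitals. Msh3 and Msh6 fell with Si2AK, Rad51c rose, and Bard1, Brca2 and Fancg did not pass the test in that comparison. Their positions in GRCm38.p6 are chr13:92355187-92355216 (Msh3), chr17:87975054-87975083 (Msh6), chr1:71103163-71103192 (Bard1), chr5:150522442-150522471 (Brca2), chr4:43010335-43010364 (Fancg) and chr11:87404477-87404506 (Rad51c), with Msh6 and Brca2 on the plus strand and the others on the minus strand.
Msh3: ttgccgtcaagTTTGGCGCgaaatcgcagc
Msh6: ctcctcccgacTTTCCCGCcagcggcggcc
Bard1: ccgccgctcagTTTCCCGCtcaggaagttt
Brca2: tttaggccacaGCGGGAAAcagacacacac
Fancg: tttcttttcagTTTCCCGCggaaccgtctc
Rad51c: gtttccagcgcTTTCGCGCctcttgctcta
Msh3 held a second, overlapping match 4 bases further on.

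Repair genes were lower with the siRNAs than with SiC, more of them and further with Si2AK. With Si2AK against SiC, 16 of 35 members fell and 1, Rad51c, rose (limma, Benjamini-Hochberg adjusted p under 0.05 over all 21300 genes), where 4.68% of all genes fell and 8.54% rose. With Si1AK against SiC, 3 of 35 fell (Rad54l, Fancc and Palb2) and 0 rose, where 1.22% of all genes fell and 3.18% rose. In that comparison 10 of 35 members had an unadjusted limma p below 0.05, as did 4008 of all 21300 genes. The median member differed by -0.51 with Si2AK against SiC, beside -0.019 over all genes, and by -0.20 with Si1AK, beside -0.060. The difference was below 0 in 33 members with Si2AK and in 30 with Si1AK. Every Si2AK array lay below every SiC array in 22 members and above in 2, where this held for 9.33% and 16.5% of all genes. Every Si1AK array lay below every SiC array in 11 members and above in 1, where it held for 8.88% and 10.7%. The siRNA comparisons share their SiC arrays.

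The calls of Si2AK against SiC rest on the spread shared by all 4 groups. When these 6 arrays were fitted alone, 0 members were called (19 of 21300 genes were lower), and the median was again -0.51. In that fit 19 of 35 members had an unadjusted limma p below 0.05, as did 3561 of 21300 genes. Without both arrays of raised signal 16 members were lower, and with single arrays left out the count was between 10 and 19, at 10 without Si2AK replicate 2 and without SiC replicate 2. Si1AK had 1 member called in the fit of its own arrays and SiC, 5 without both arrays of raised signal, and 2 or 3 with single arrays left out. Without the filter on dim probes, where more genes share the adjustment, 9 members were lower with Si2AK against SiC, and Atm, Msh3, Pms2, Rad50, Rad51ap1, Rad54b and Xrcc2 no longer passed. With all kept probes of a gene averaged 11 were lower, and Atm, Fancc, Fanci, Pms2, Rad54b and Xrcc2 no longer passed. With slide as a block, Brca2 and Bard1 passed with both siRNAs, and Atr, Fancb and Fancd2 with Si2AK, in addition to the genes above.

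**Figure D1:**
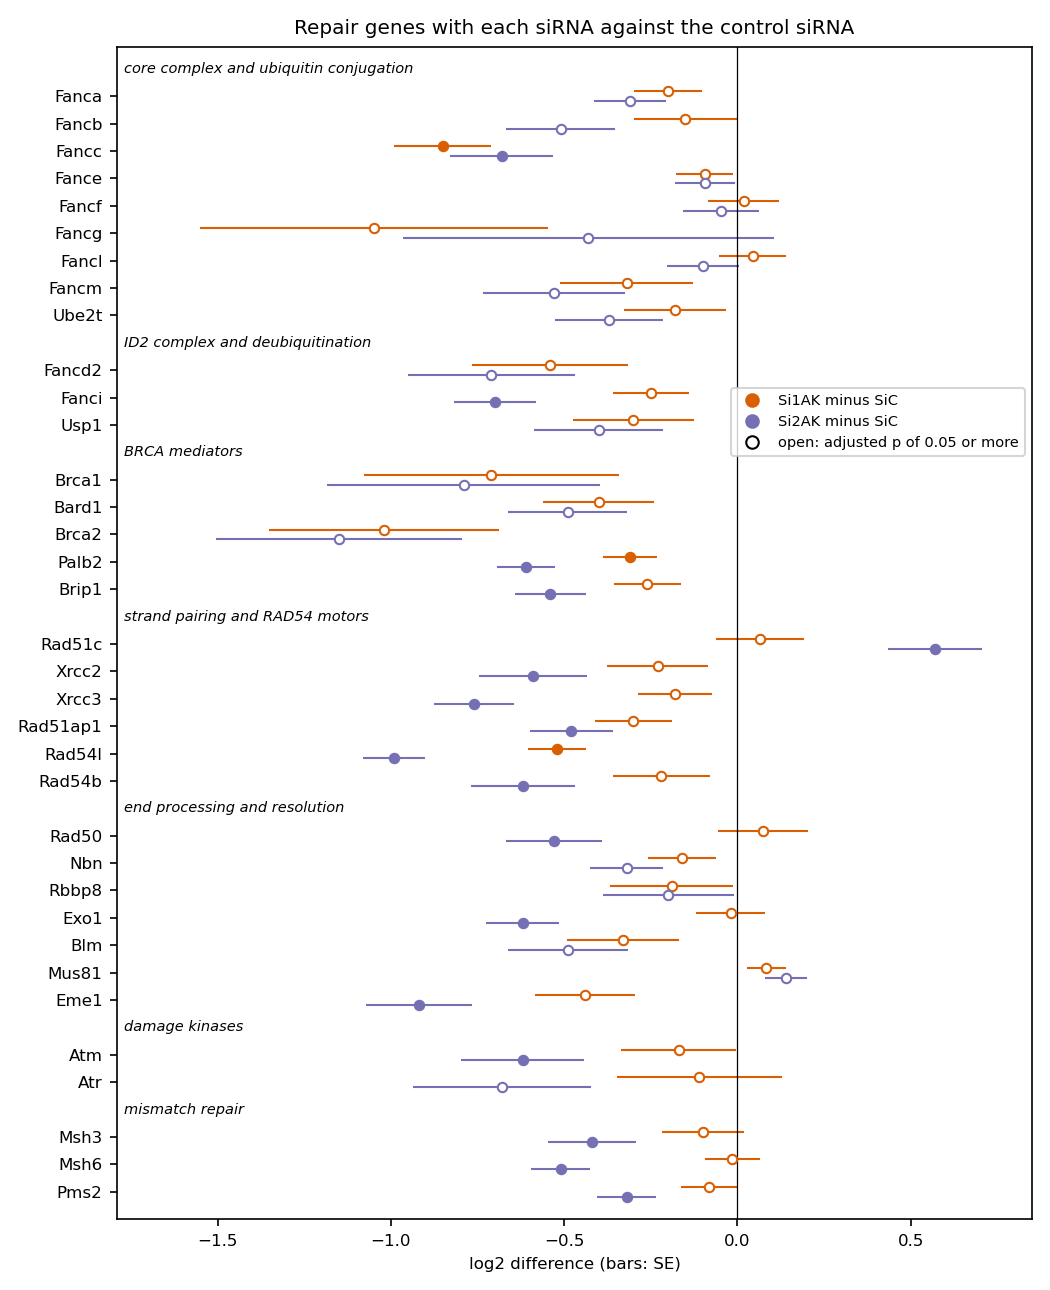
Log2 difference from SiC (horizontal axis, bars SE) of the 35 repair genes by role, for Si1AK and Si2AK, with filled points where the limma adjusted p was below 0.05. The Si2AK points lie left of 0 in 33 genes, down to -1.15 for Brca2, whose point is open, and Rad51c stands alone to the right at 0.57.

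Of the 6 genes of strand pairing, 5 fell with Si2AK against SiC (Rad54l, Xrcc3, Rad54b, Xrcc2 and Rad51ap1) and 1, Rad51c, rose. With Si1AK 1 fell. Rad54l, which encodes the motor protein RAD54 that helps a broken end pair with its template, had levels of 0.15, 0.22, 0.17 and 0.13 in Si1AK, -0.29, -0.13 and -0.46 in Si2AK, 0.59, 0.72 and 0.76 in SiC, and 1.08, 1.04, 1.03 and 1.16 in NT. The 4 groups did not overlap, with Si2AK lowest and NT highest. Rad54l differed by -0.99 ± 0.0898 (SE; limma adjusted p = 9.3e-05) with Si2AK and by -0.52 ± 0.0840 (adjusted p = 0.00518) with Si1AK against SiC, which is 0.505 and 0.696 of the SiC signal. Both calls held in all 14 fits that left out 1 array each. Within slides the differences were -0.81 and -1.20 with Si2AK and -0.41 and -0.59 with Si1AK (slide 1 and slide 2).

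Xrcc3, which acts in strand pairing, had -0.69, -0.69, -0.80 and -0.75 in Si1AK, -1.32, -1.11 and -1.52 in Si2AK, -0.65, -0.55 and -0.47 in SiC, and -0.62, -0.65, -0.55 and -0.33 in NT. The 3 Si2AK arrays were below all others, and Si1AK lay just under the lowest SiC and NT arrays. The Si2AK difference from SiC was -0.76 ± 0.115 (adjusted p = 0.00153) and that of Si1AK -0.18 ± 0.108 (adjusted p = 0.386). Xrcc2, which acts in the same step, had -0.28, -0.28, -0.51 and -0.65 in Si1AK, -0.60, -0.72 and -1.05 in Si2AK, -0.084, -0.17 and -0.35 in SiC, and 0.085, -0.020, -0.21 and -0.36 in NT. Here Si2AK lay below SiC and NT but overlapped Si1AK. It differed from SiC by -0.59 ± 0.155 (adjusted p = 0.0280) with Si2AK.

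Rad54b, a relative of Rad54l, had 0.16, 0.10, -0.11 and -0.13 in Si1AK, -0.035, -0.62 and -0.50 in Si2AK, 0.22, 0.24 and 0.24 in SiC, and 0.24, 0.11, 0.48 and 0.17 in NT. All siRNA arrays were below all SiC arrays. Si2AK differed from SiC by -0.62 ± 0.150 (adjusted p = 0.0194). Rad51ap1, whose product stimulates strand pairing, had 3.03, 2.96, 3.17 and 3.03 in Si1AK, 3.05, 2.67 and 2.87 in Si2AK, 3.12, 3.44 and 3.48 in SiC, and 3.33, 3.36, 3.45 and 3.5 in NT. Si2AK lay below SiC on every array, while 1 Si1AK array reached above the lowest SiC array. Rad51ap1 differed by -0.48 ± 0.120 (adjusted p = 0.0209) with Si2AK against SiC. The Xrcc2 call ended without Si2AK replicate 2 or 3 or SiC replicate 1 or 2 (-0.68 to -0.45 over all such fits). That of Rad54b ended without Si2AK replicate 2 or 3 or SiC replicate 2 (-0.79 to -0.50), and that of Rad51ap1 without Si2AK replicate 2 or 3 or SiC replicate 2 or 3 (-0.59 to -0.38).

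**Figure D2:**
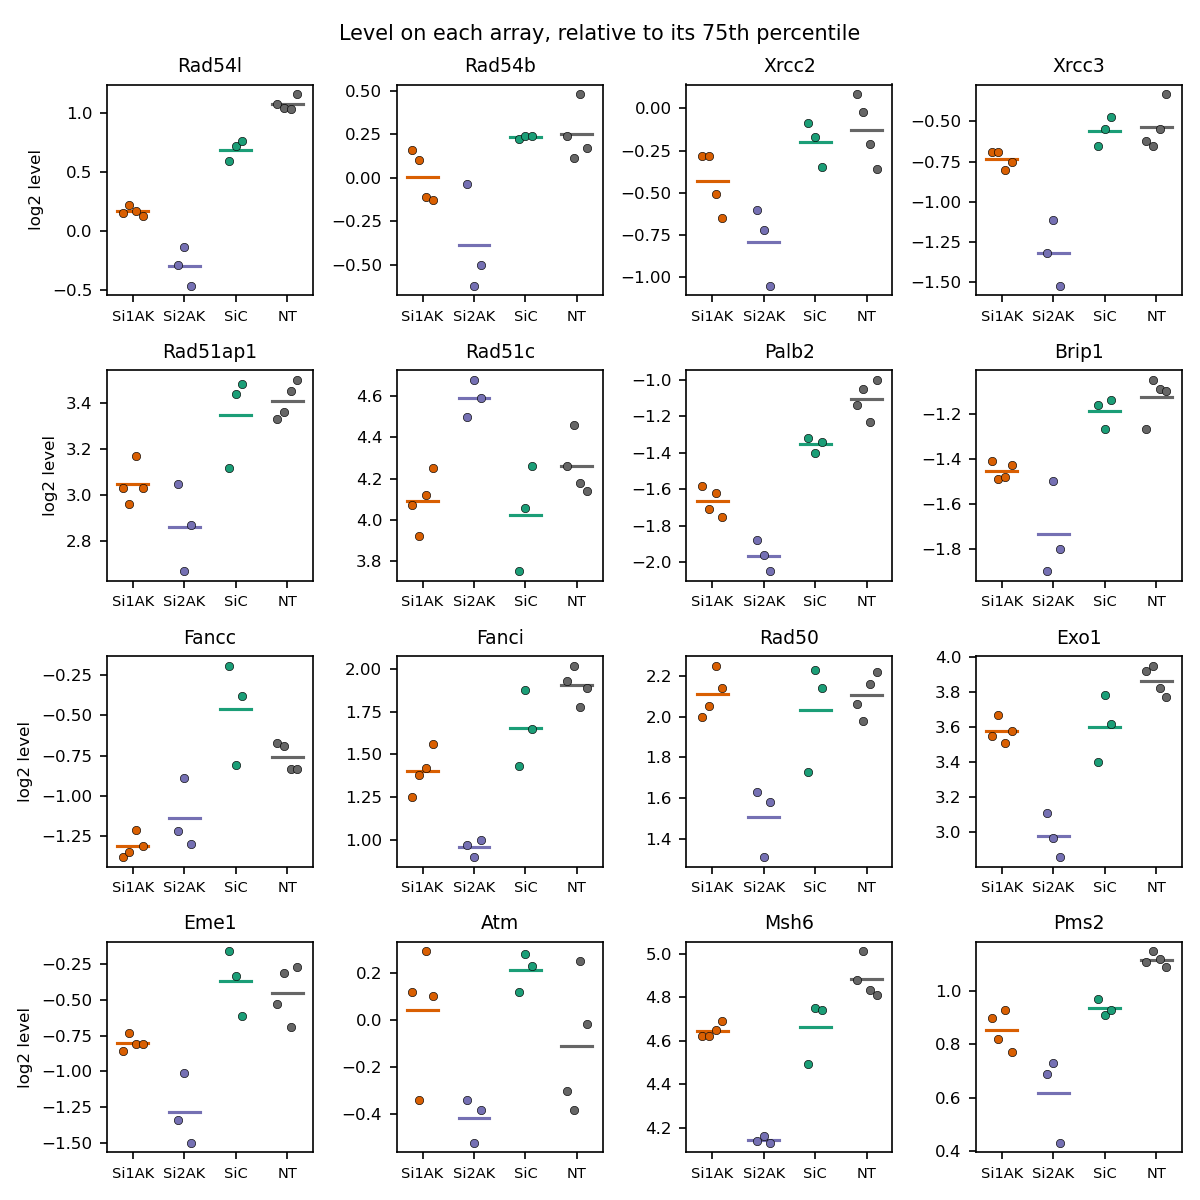
Level on each array, log2 relative to the 75th percentile of the array (vertical axis), for 16 repair genes in Si1AK, Si2AK, SiC and NT; each point is 1 array in replicate order and each line a group mean. Rad54l runs between -0.46 in Si2AK and 1.16 in NT with no overlap between groups, and Rad51c is the panel in which Si2AK is highest.

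Rad51c, which acts in homologous recombination, ran the other way. Its probe had 4.07, 3.92, 4.12 and 4.25 in Si1AK, 4.5, 4.68 and 4.59 in Si2AK, 3.75, 4.06 and 4.26 in SiC, and 4.26, 4.46, 4.18 and 4.14 in NT. The 3 Si2AK arrays were above all others. The difference from SiC was 0.57 ± 0.136 (adjusted p = 0.0176) with Si2AK and 0.064 ± 0.127 (adjusted p = 0.792) with Si1AK, and the Si2AK call ended without Si2AK replicate 2 (0.52) and in the authors' deposited value table. The probe printed above opens with 8 TG units in a row, and no other member's probe has more than 3. Over the 87 kept probes with at least 7 TG units in a row, of which this is 1, the median difference was 0.56 with Si2AK against SiC (quartiles 0.49 and 0.60, range 0.065 to 1.25) and 0.018 with Si1AK, beside -0.051 and -0.10 over all 30299 kept probes. Over the 41 kept probes with at least 7 CA units, the median was -0.63 with Si2AK against SiC (quartiles -0.76 and -0.56) and -0.071 with Si1AK. These repeat probes were looked up after the values of Rad51c had been seen. Rad51c thus has no value apart from this probe. Its Si2AK difference from SiC lies between the quartiles of the TG repeat probes. With Si1AK its difference from SiC lies just above their upper quartile of 0.056. With Si2AK against NT its 0.33 lies below their lower quartile of 0.37. The level of Rad51c apart from the repeat was not tested.

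**Figure D3:**
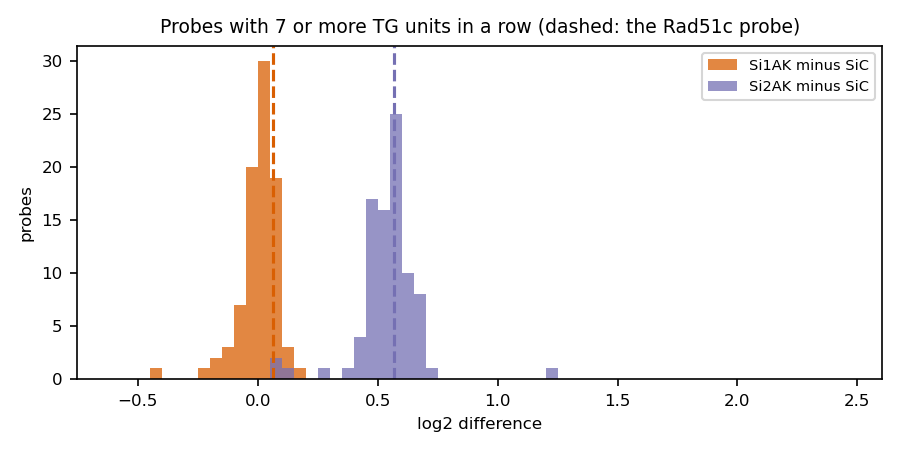
Number of probes (vertical axis) by log2 difference from SiC (horizontal axis) among the 87 kept probes with at least 7 TG units in a row, for Si1AK and Si2AK, with the Rad51c probe as dashed lines. The Si2AK probes centre on 0.56 and the Si1AK probes on 0.018. Rad51c lies near the centre with Si2AK (0.57) and just above the upper quartile of 0.056 with Si1AK (0.064).

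Of the 5 genes of the BRCA group, which prepare the broken end for pairing, 2 fell with Si2AK against SiC (Palb2 and Brip1) and 1 with Si1AK (Palb2). Palb2, the bridge between BRCA1 and BRCA2, had -1.58, -1.71, -1.62 and -1.75 in Si1AK, -1.88, -1.96 and -2.05 in Si2AK, -1.32, -1.40 and -1.34 in SiC, and -1.14, -1.05, -1.23 and -1.0 in NT. As with Rad54l, the 4 groups did not overlap and stood in the same order. The difference from SiC was -0.61 ± 0.0830 (adjusted p = 0.000887) with Si2AK and -0.31 ± 0.0776 (adjusted p = 0.0478) with Si1AK. The Si2AK call held in all 14 fits without 1 array, but ended after quantile normalization (-0.31, adjusted p = 0.561) and in the authors' deposited value table (-0.25, adjusted p = 0.536). The Si1AK call held in 2 of the 14 fits (-0.34 to -0.28), and the difference was 0.15 after quantile normalization and 0.14 in the authors' deposited value table. A second Palb2 probe differed by -0.71 with Si2AK and -0.53 with Si1AK.

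Brip1, a helicase that binds BRCA1, had -1.41, -1.49, -1.48 and -1.43 in Si1AK, -1.90, -1.50 and -1.80 in Si2AK, -1.16, -1.27 and -1.14 in SiC, and -1.27, -1.05, -1.09 and -1.10 in NT. All siRNA arrays were below all SiC and NT arrays. It differed by -0.54 ± 0.103 (adjusted p = 0.00562) with Si2AK and -0.26 ± 0.0967 (adjusted p = 0.163) with Si1AK against SiC. The Si2AK call ended after quantile normalization (-0.27, adjusted p = 0.453) and in the authors' deposited value table (-0.29, adjusted p = 0.247). Brca2, which acts with PALB2, had a difference of -1.15 ± 0.354 (adjusted p = 0.0526) with Si2AK and -1.02 ± 0.331 (adjusted p = 0.118) with Si1AK, and neither passed. Its levels were -0.54, -0.59, 0.45 and 0.31 in Si1AK, -0.32, -0.66 and 0.30 in Si2AK, 0.46, 1.18 and 1.14 in SiC, and 0.58, 0.35, 0.94 and 1.19 in NT. In every group the arrays of slide 1 lay below those of slide 2, and on each slide all siRNA arrays lay below all SiC and NT arrays. With slide as a block the difference from SiC passed with both siRNAs, at -0.90 ± 0.125 (adjusted p = 0.00102) with Si2AK and -0.89 ± 0.115 (adjusted p = 0.00153) with Si1AK. Bard1, the partner of BRCA1 in its ubiquitin ligase, differed by -0.49 ± 0.171 (adjusted p = 0.0835) with Si2AK, and passed with slide as a block (-0.39, adjusted p = 0.0224; with Si1AK -0.35, adjusted p = 0.0461). Brca1 itself differed by -0.79 ± 0.393 (adjusted p = 0.242) and had -2.31 on SiC replicate 1, against -3.77 and -3.83 on the other SiC arrays.

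Of the 9 genes of the Fanconi core complex and its ubiquitin conjugation, 1 fell with either siRNA against SiC: Fancc, a core subunit that joins FANCE and FANCF. Fancc had -1.38, -1.35, -1.21 and -1.31 in Si1AK, -1.22, -0.89 and -1.30 in Si2AK, -0.19, -0.81 and -0.38 in SiC, and -0.67, -0.69, -0.83 and -0.83 in NT. All siRNA arrays lay below all SiC and NT arrays, and SiC replicate 1 was the highest of all. The difference from SiC was -0.85 ± 0.140 (adjusted p = 0.00570) with Si1AK and -0.68 ± 0.149 (adjusted p = 0.0117) with Si2AK. Both calls held in all 14 fits without 1 array. A second Fancc probe, well above background on 11 arrays, differed by 0.11 with Si1AK and -0.27 with Si2AK, and with both probes averaged Fancc passed with neither siRNA (-0.37, adjusted p = 0.336, with Si1AK and -0.47, adjusted p = 0.205, with Si2AK).

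The other core genes did not pass against SiC. Fancb, Fance, Fancf, Fanca, Fancg and Fancl, whose product is the ubiquitin ligase, had Si2AK differences of -0.51, -0.094, -0.048, -0.31, -0.43 and -0.10. Fancm, a translocase that anchors the complex to DNA, differed by -0.53 ± 0.205 (adjusted p = 0.125) and Ube2t, the ubiquitin-conjugating enzyme, by -0.37 ± 0.156 (adjusted p = 0.158). Fancb came nearest to the threshold (adjusted p = 0.0531) and passed with slide as a block (-0.44, adjusted p = 0.0462). Fancg had -1.13 on SiC replicate 1, against -3.41 and -3.44 on the other SiC arrays, a gap larger than any difference between the groups for this gene.

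In the pair that the core complex marks, Fanci fell with Si2AK. Fanci had 1.25, 1.38, 1.42 and 1.56 in Si1AK, 0.97, 0.90 and 1.0 in Si2AK, 1.43, 1.88 and 1.65 in SiC, and 1.93, 2.02, 1.78 and 1.89 in NT. The Si2AK arrays were below all others, and Si1AK overlapped the lowest SiC array. Fanci differed by -0.70 ± 0.118 (adjusted p = 0.00287) with Si2AK and -0.25 ± 0.110 (adjusted p = 0.238) with Si1AK against SiC. A second Fanci probe differed by 0.073 with Si2AK and -1.24 with Si1AK, so the 2 probes disagree on which siRNA gave the lower signal. The second probe was much dimmer, with a mean level of -3.87 beside 1.51 for the probe used. With both averaged the Si2AK difference was -0.31 (adjusted p = 0.823) and no longer passed. Fancd2, its partner, differed by -0.71 ± 0.240 (adjusted p = 0.0815) with Si2AK and passed with slide as a block (-0.84, adjusted p = 0.0142), and its spot on NT replicate 1 was left out as an outlier. Usp1, the enzyme that removes ubiquitin from the pair, differed by -0.40 ± 0.186 (adjusted p = 0.201).

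Of the 7 genes that trim ends or resolve joints, 3 fell with Si2AK against SiC (Eme1, Exo1 and Rad50) and 0 with Si1AK. Eme1, the partner of the MUS81 nuclease, had -0.86, -0.73, -0.81 and -0.81 in Si1AK, -1.34, -1.01 and -1.50 in Si2AK, -0.16, -0.33 and -0.61 in SiC, and -0.53, -0.31, -0.69 and -0.27 in NT. The siRNA arrays were below all SiC and NT arrays, Si2AK furthest. The difference was -0.92 ± 0.153 (adjusted p = 0.00275) with Si2AK and -0.44 ± 0.143 (adjusted p = 0.120) with Si1AK. Mus81 itself differed by 0.14 ± 0.0595 (adjusted p = 0.162) with Si2AK and lay between 0.94 and 1.13 on all 14 arrays, the narrowest range among the 35 genes.

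Exo1, an exonuclease of both end trimming and mismatch repair, had 3.55, 3.67, 3.51 and 3.58 in Si1AK, 3.11, 2.97 and 2.86 in Si2AK, 3.40, 3.78 and 3.62 in SiC, and 3.92, 3.95, 3.82 and 3.77 in NT. Si2AK alone lay apart from SiC. It differed by -0.62 ± 0.105 (adjusted p = 0.00301) with Si2AK and -0.020 ± 0.0984 (adjusted p = 0.922) with Si1AK. Rad50, part of the complex that first binds broken ends, had 2.00, 2.05, 2.25 and 2.14 in Si1AK, 1.63, 1.31 and 1.58 in Si2AK, 1.73, 2.23 and 2.14 in SiC, and 2.06, 1.98, 2.16 and 2.22 in NT. Again only Si2AK lay below SiC. The Rad50 difference was -0.53 ± 0.138 (adjusted p = 0.0260) with Si2AK, and the call ended without Si2AK replicate 2 (-0.43), SiC replicate 2 (-0.43) or SiC replicate 3 (-0.48). Nbn, of the same complex, differed by -0.32 ± 0.106 (adjusted p = 0.0678), the helicase gene Blm by -0.49 ± 0.173 (adjusted p = 0.0915) and Rbbp8, whose product CtIP starts end trimming, by -0.20 ± 0.189 (adjusted p = 0.602).

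Of the damage kinase genes, Atm fell with Si2AK and Atr did not pass. Atm had 0.12, -0.34, 0.29 and 0.10 in Si1AK, -0.34, -0.52 and -0.38 in Si2AK, 0.12, 0.28 and 0.23 in SiC, and -0.30, -0.38, 0.25 and -0.017 in NT. Si2AK was below SiC, and the lowest Si1AK and NT arrays reached its range. Its difference from SiC was -0.62 ± 0.178 (adjusted p = 0.0383) and held in 6 of 14 fits without 1 array (-0.67 to -0.57), being lost among others without any 1 of the Si2AK or SiC arrays. In NT the 2 arrays of slide 1 were lower than the 2 of slide 2. Atr differed by -0.68 ± 0.256 (adjusted p = 0.109) with Si2AK, and passed with slide as a block (-0.51, adjusted p = 0.0118).

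All 3 mismatch repair members fell with Si2AK against SiC and 0 passed with Si1AK. Msh6, which recognises mispaired bases, had 4.62, 4.62, 4.65 and 4.69 in Si1AK, 4.14, 4.16 and 4.13 in Si2AK, 4.49, 4.75 and 4.74 in SiC, and 4.88, 5.01, 4.83 and 4.81 in NT. The Si2AK arrays lay close to each other and below all others. The difference was -0.51 ± 0.0850 (adjusted p = 0.00265) with Si2AK and -0.015 ± 0.0795 (adjusted p = 0.928) with Si1AK. Pms2, which cuts the strand to be replaced, had 0.90, 0.82, 0.93 and 0.77 in Si1AK, 0.69, 0.73 and 0.43 in Si2AK, 0.97, 0.91 and 0.93 in SiC, and 1.11, 1.15, 1.12 and 1.09 in NT. Si2AK was again lowest and NT highest. It differed from SiC by -0.32 ± 0.0855 (adjusted p = 0.0292), and the call ended without Si2AK replicate 3 (-0.23) or any 1 of the SiC arrays (-0.30 to -0.33). Msh3, which recognises small loops, differed by -0.42 ± 0.126 (adjusted p = 0.0470) with Si2AK and held in 2 of 14 fits without 1 array (-0.57 to -0.34).

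Other probes bear on the same genes. More than 1 kept probe was held for 13 members, with 15 further probes in all. Against SiC the difference of these was below 0 in 14 with Si2AK and in 13 with Si1AK. The median over all 30299 kept probes was itself below 0, at -0.051 with Si2AK and -0.10 with Si1AK. The further probes were dimmer than those used, since the brightest was chosen. Apart from those of Fance (0.19), Fancl (2.11) and Rad50 (-0.90), their mean levels ran from -1.69 down to -4.47 (the second Fancc probe). With no filter on dim probes, the median of all genes against SiC was -0.48 with Si1AK and -0.20 with Si2AK. The counts of further probes were not compared with other probes of like level.

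Against untransfected cells more members passed. With Si2AK against NT 18 of 35 fell and 0 rose, where 7.7% of all genes fell and 7.98% rose. With Si1AK against NT 7 of 35 fell and 0 rose, where 3.04% fell and 4.03% rose. The medians were -0.54 with Si2AK, beside 0.023 over all genes, and -0.27 with Si1AK, beside -0.088. Every Si2AK array lay below every NT array in 26 members and above in 2, where this held for 12.7% and 14% of all genes. Every Si1AK array lay below every NT array in 18 members and above in 1, where it held for 12.2% and 9.15%. These differences include any effect of transfection, and both comparisons share the NT arrays.

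Rad54l had the lowest difference in both, at -1.37 ± 0.0840 (adjusted p = 5.92e-06) with Si2AK and -0.91 ± 0.0778 (adjusted p = 8.05e-05) with Si1AK against NT. Among the other Si2AK calls were Fanci at -0.95 ± 0.110, Exo1 at -0.89 ± 0.0984 and Palb2 at -0.86 ± 0.0776. The second, much dimmer Fanci probe differed by 0.16 with Si2AK, and with both averaged Fanci no longer passed with Si2AK (-0.39, adjusted p = 0.712) or Si1AK (-0.83, adjusted p = 0.335) against NT. Against NT, 6 members fell with both siRNAs: Rad54l, Palb2, Fanci, Brip1, Bard1 and Fanca. Bard1 and Fanca had not passed against SiC. Bard1 differed from NT by -0.68 ± 0.160 (adjusted p = 0.0132) with Si2AK and -0.59 ± 0.148 (adjusted p = 0.0341) with Si1AK, and Fanca, of the core complex, by -0.47 ± 0.0977 and -0.36 ± 0.0905 (adjusted p = 0.00686 and 0.0334). Fancb (-0.60) and Nbn (-0.41) also fell with Si2AK against NT. Of the 16 members lower with Si2AK against SiC, 14 were also lower against NT, and Fancc (-0.38, adjusted p = 0.0931) and Atm (-0.30, adjusted p = 0.296) did not pass. Rad54l and Palb2 were lower in all 4 siRNA comparisons, and 15 members in 0 of them.

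With SiC against NT 0 of 35 members and 0 of 21300 genes (0% in each direction) passed in limma. At an unadjusted p below 0.05 there were 6 members and 1582 genes. The median member differed by -0.077, beside -0.0088 over all genes. All SiC arrays lay below all NT arrays in 4 members and above in 0, where this held for 4.33% and 1.68% of all genes. Rad54l had the lowest difference, -0.39 ± 0.0840 (adjusted p = 0.636), and with Palb2 (-0.25 ± 0.0776, adjusted p = 0.636) was among those whose SiC and NT arrays did not overlap.

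The siRNAs were also set against each other. With Si2AK against Si1AK 8 of 35 members fell and 1 rose, where 6.15% of all genes fell and 6.33% rose. The median member differed by -0.19, beside 0.10 over all genes, and 30 members were below 0. All Si2AK arrays lay below all Si1AK arrays in 12 members and above in 2, where this held for 12% and 17.4% of all genes. Those that fell were Exo1 (-0.60 ± 0.0984, adjusted p = 0.00208), Rad50 (-0.60 ± 0.129, adjusted p = 0.00956), Xrcc3 (-0.58 ± 0.108, adjusted p = 0.00417), Msh6 (-0.50 ± 0.0795, adjusted p = 0.00171), Eme1 (-0.48), Rad54l (-0.46), Fanci (-0.45) and Palb2 (-0.30). Rad51c rose (0.50 ± 0.127, adjusted p = 0.0225), and the TG repeat probes had a median of 0.55 in the same comparison. Fancc had a difference of 0.18 ± 0.140 (adjusted p = 0.501). The Fanci difference was 0.43 when its probes were averaged.

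By array, the repair genes and a cell cycle list had similar medians. The median deviation of the 35 genes from their 14-array mean was -0.092, -0.14, -0.030 and -0.061 on the Si1AK arrays, -0.23, -0.45 and -0.34 on Si2AK, -0.056, 0.20 and 0.17 on SiC, and 0.20, 0.17, 0.25 and 0.25 on NT. SiC replicate 1 stood with the Si1AK arrays. It was below both other SiC arrays in 25 members and above both in 9, with a median gap of -0.28. Without SiC replicate 1, 34 members were below 0 with Si1AK (median -0.25) and 32 with Si2AK (median -0.59). A list of 44 S phase and cell cycle genes had medians of -0.17, -0.19, -0.073 and -0.10 in Si1AK, -0.21, -0.34 and -0.35 in Si2AK, -0.026, 0.20 and 0.20 in SiC, and 0.22, 0.31, 0.30 and 0.30 in NT. Its part in the fall of the repair genes was not tested.

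**Figure D4:**
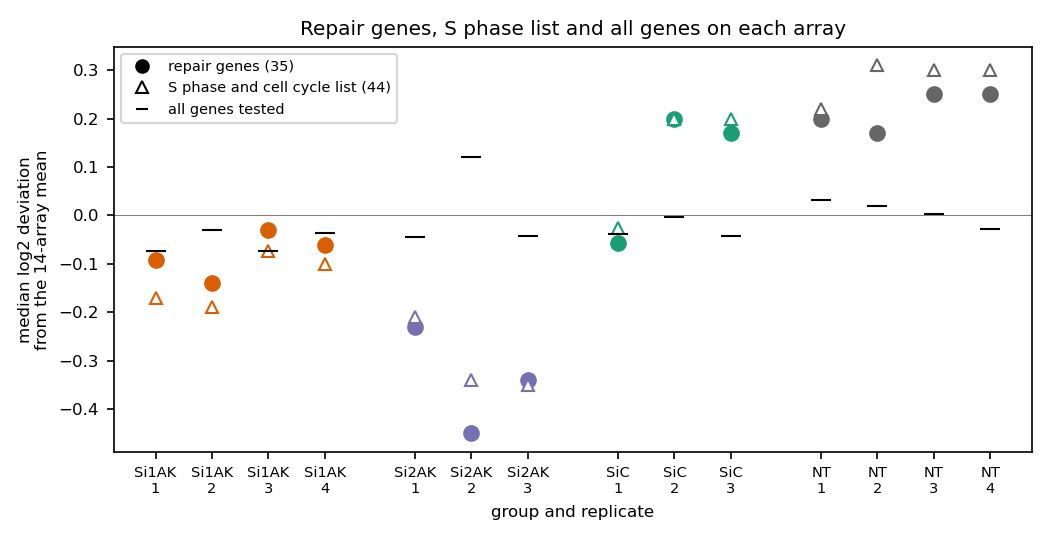
Median log2 deviation from the 14-array mean (vertical axis) on each array by group and replicate, for the 35 repair genes, the 44 genes of the S phase and cell cycle list and all 21300 genes tested. Repair and S phase genes lie lowest on the Si2AK arrays. The S phase genes lie highest on NT, while the repair genes on NT (0.17 to 0.25) overlap those on SiC replicates 2 and 3 (0.20 and 0.17). The repair genes on SiC replicate 1 lie at -0.056, under the other SiC arrays.

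The median member was below 0 on both slides. Both arrays of raised signal lay on slide 1, and SiC replicate 1 was its only SiC array. The median difference on slide 1 and slide 2 was -0.36 and -0.54 with Si2AK against SiC, beside -0.048 and -0.0021 over all genes. With Si1AK against SiC it was -0.12 and -0.24, beside -0.0072 and -0.041. With Si2AK against NT it was -0.51 and -0.58, beside 0.035 and -0.033. With Si1AK against NT it was -0.31 and -0.29, beside -0.10 and -0.064. Members below 0 on both slides numbered 29 with Si2AK and 23 with Si1AK against SiC, and 32 with Si2AK and 28 with Si1AK against NT. Within a slide fewer genes passed in all. With Si2AK against SiC 0 members were lower on slide 1 and 1 on slide 2, beside 152 and 74 of 21300 genes. With Si2AK against NT 5 were lower on each slide, beside 166 and 260 genes. With Si1AK 0 members were lower on either slide, beside 0 and 10 genes against SiC and 2 and 8 against NT.

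Other repair lists set the members in context. With Si2AK against SiC, 6 of 10 other mismatch repair genes tested fell, 8 of 21 checkpoint genes, 7 of 37 other recombination genes, 5 of 18 base excision genes, 2 of 14 other Fanconi and crosslink genes, 1 of 15 end joining genes and 0 of 21 nucleotide excision genes. As a share, 45.7% of the repair members fell, beside 4.68% of all genes. With Si2AK 2 other recombination genes, 1 end joining gene and 1 base excision gene rose (5.41%, 6.67% and 5.56% of those tested). These shares are below the 8.54% of all genes that rose. With Si1AK against SiC 3 checkpoint, 4 recombination, 2 base excision and 1 Fanconi or crosslink gene fell, and 0 of the mismatch, end joining and nucleotide excision genes. Over all genes 1.22% fell in this comparison. With Si1AK 1 Fanconi or crosslink gene and 2 genes of the nucleotide excision list rose, beside 3.18% of all genes. Those 2 were Ercc5 and Mgmt. The list also holds genes of direct reversal of alkyl damage, Mgmt among them, which are not nucleotide excision genes.

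Among the mismatch genes, the ligase gene Lig1 differed by -0.62 ± 0.133 with Si2AK and the sliding clamp gene Pcna by -0.51 ± 0.120. Of the checkpoint genes, Timeless, which stabilises forks, differed by -0.73 ± 0.135 with Si1AK and -1.15 ± 0.144 with Si2AK, Clspn, the adaptor of the kinase CHK1, by -0.89 ± 0.150 and -0.95 ± 0.160, and the phosphatase gene Cdc25c by -0.59 and -0.43, all past the threshold. Parpbp, which restrains homologous recombination, fell by 0.46 with Si1AK and fell by 0.70 with Si2AK. The polymerase gene Poln fell with Si1AK (-1.30 ± 0.247, limma adjusted p = 0.0128). Its probe was dim, with means of -3.60 in Si1AK and -2.29 in SiC, and the SiC arrays spread more widely (SD 0.526 against 0.184). The crosslink sensor gene Uhrf1 fell with Si2AK (-0.76 ± 0.140, adjusted p = 0.00470). Ercc1, a nuclease subunit of crosslink and nucleotide excision repair, rose with Si1AK (0.59 ± 0.102, adjusted p = 0.00779), as did Mgmt, which removes alkyl groups from guanine (0.96 ± 0.0962, adjusted p = 0.000282), and the nuclease gene Ercc5 (0.57 ± 0.109, adjusted p = 0.0131). Parp1, a sensor of strand breaks, fell with Si2AK (-0.73 ± 0.0948, adjusted p = 0.000692), and the glycosylase gene Neil3 likewise (-1.05 ± 0.130, adjusted p = 0.000530).

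In the S phase and cell cycle list 22 of 44 genes fell with Si2AK and 6 with Si1AK against SiC, and 0 rose with either. Over all genes 4.68% fell and 8.54% rose with Si2AK against SiC, and 1.22% fell and 3.18% rose with Si1AK. Gins1 and Mcm7, of the replicative helicase, differed by -0.79 and -0.68 with Si2AK and by -0.54 and -0.49 with Si1AK, and the loading factor Cdc6 by -0.73 and -0.35, all past the threshold. Of 24 p53 target genes 8 rose and 1 fell with Si2AK, and 11 rose and 0 fell with Si1AK. Cdkn1a, which encodes the cell cycle inhibitor p21, rose with Si1AK (0.83 ± 0.126, adjusted p = 0.00386) and with Si2AK (0.61 ± 0.135, adjusted p = 0.0122). Among 10 tested keratinocyte markers 4 rose with Si2AK and 0 with Si1AK against SiC. The summed linear signal of the 11 markers, relative to the 75th percentile, was 802 to 899 in Si1AK, 987 to 1040 in Si2AK, 750 to 954 in SiC and 967 to 1170 in NT. That of the 9 fibroblast markers was 216 to 251 in Si1AK, 235 to 255 in Si2AK, 189 to 249 in SiC and 229 to 287 in NT, and that of the 8 leukocyte markers 15.9 to 17.7 in Si1AK, 13.6 to 14.3 in Si2AK, 13.5 to 17.9 in SiC and 14.9 to 17.6 in NT. The 5 endothelial markers summed to 7.91 to 9.43 in Si1AK, 8.85 to 11.5 in Si2AK, 8.34 to 9.47 in SiC and 8.96 to 13.2 in NT. The 6 melanocyte markers summed to 1.78 to 2.29 in Si1AK, 3.79 to 4.11 in Si2AK, 2.25 to 2.53 in SiC and 1.94 to 2.28 in NT. Mitf was the brightest of them, with a mean level of 1.85 in Si2AK and 0.88 in SiC. Of the 3 melanocyte markers tested, 2 were below 0 with Si2AK against SiC (median -0.20), so the higher sum is not a rise of the list. With Si2AK against SiC 1 of 7 fibroblast, 1 of 3 melanocyte, 0 of 4 leukocyte and 0 of 4 endothelial markers tested rose, beside 8.54% of all genes. The part of the markers in the values of the repair genes was not tested.

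**Figure D5:**
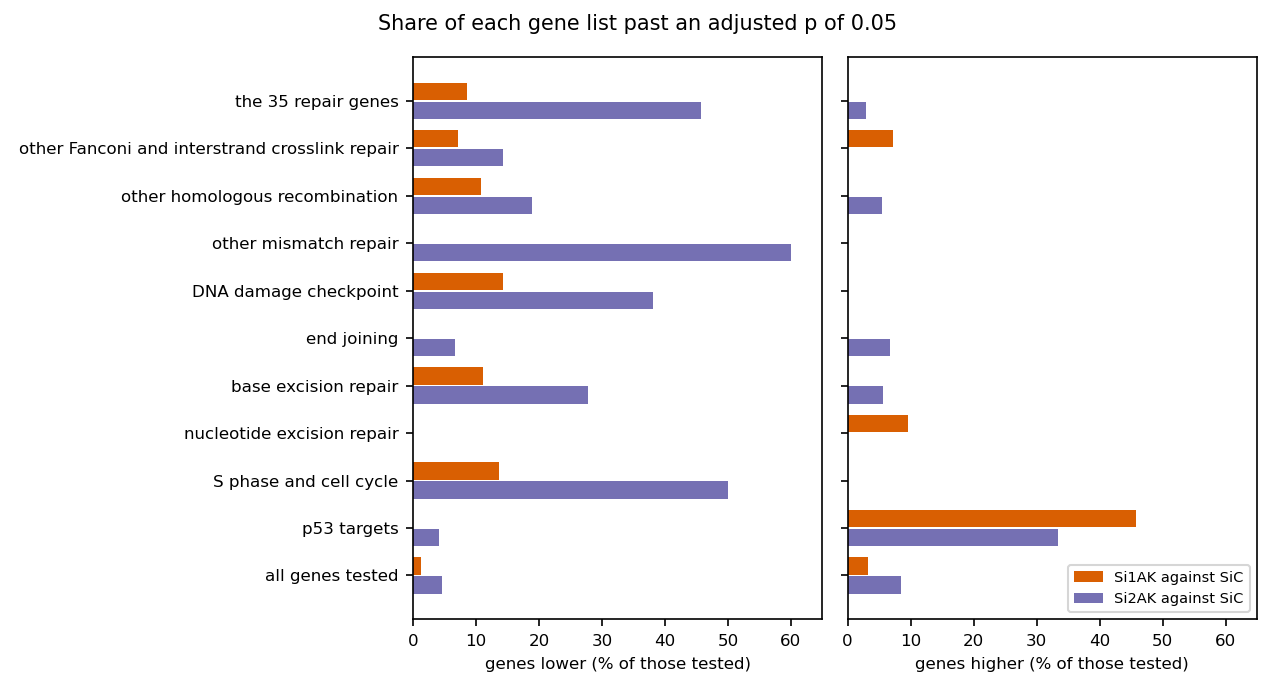
Percent of tested genes in each list that were lower (left) or higher (right) at an adjusted p below 0.05, for Si1AK and Si2AK against SiC, with all 21300 genes as the bottom row. The repair genes (45.7%), other mismatch repair genes (60%) and S phase genes (50%) have the longest Si2AK bars on the left, and the p53 targets have the longest bars drawn on the right (45.8% with Si1AK and 33.3% with Si2AK). The cell type markers are not drawn, and 40% of the keratinocyte markers were higher with Si2AK.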

How the data were processed

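RNA of 14 samples was read on 1-colour Agilent mouse arrays: 0.2 µg of total RNA (RNA integrity number 9) was labelled with Cy3 and 600 ng was hybridised, per the labels. The processed signal is an intensity after background subtraction within the array, read with Agilent Feature Extraction 10.7.3.1, per the file headers. The 0 or 1 marks of spots (a unit other than intensity) were deposited beside it, per the file headers. A value table of the same 14 arrays was deposited too, and its values are log2. The submitters' processing notes name limma without a version. The table correlated at 0.991 or more (Pearson r over spots) with log2 of the raw mean signal, and each column had a median of 6.51, so the log2 scale and the direction are borne out; the background step is unknown.

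Spots marked as uneven or outlying were dropped, spots of a probe were averaged, and log2 processed signal minus the 75th percentile of each array was taken. A probe was kept (30299 were) if some group had it well above background on each of its arrays. Gene names are those of the array's annotation. The brightest kept probe stood for its gene. All 14 arrays were fitted in limma 3.58.1 (R 4.3.3; lmFit, eBayes, 10 residual degrees of freedom) with Benjamini-Hochberg adjustment over 21300 genes. Errors of differences are SE. The script was tested on simulated arrays in which 200 of 21300 genes differed by a log2 change of 1 in Si1AK. Against SiC 56.5% of them were recovered, with 4 false calls. A member that did not pass may therefore still differ. The number of arrays limits the precision. Outlying values of single members were sought within Si1AK and NT, the groups of 4 arrays. Dixon's test was run on 69 groups of member values, with 0 past the limit. Si2AK and SiC have fewer arrays and were not tested. Both arrays of raised signal lie in those untested groups, so this test could not have flagged them.

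The 35 members and the 9 other gene lists were chosen with earlier results of these data known. Values per array are given for members called in a comparison with SiC or in both with NT, at most 16 by adjusted p. At most 3 called genes were named from each list. Scaling, background correction, filter, probe choice, weights, slide, replicate number and single arrays were varied.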

Additional observations from a re-analysis of the deposited data

How the results depend on the processing

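Over 27 alternatives, 54 single differences past the threshold gave 1458 values, of which 1172 stayed past it in the same direction, 283 lost significance and 3 changed sign. Palb2 with Si1AK against SiC became 0.15 under quantile normalization and 0.14 in the authors' deposited value table, and Fanci with Si2AK against Si1AK became 0.43 with all kept probes averaged. Quantile normalization also moved the median of all genes with Si1AK against SiC to 0.061, against -0.060 as reported.

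Members lower with Si2AK against SiC (16) numbered 21 with slide as a block, 24 after quantile normalization, 23 in the authors' deposited value table, 9 without the filter on dim probes, 11 with probes averaged, 24 with array weights, 0 with only the compared groups fitted, 0 on slide 1 and 1 on slide 2, and 10 to 19 with single arrays left out. The 1 higher member numbered 0 in the authors' table, without the filter, with only the compared groups, on either slide and without both arrays of raised signal, and 0 to 1 with single arrays left out. Members lower with Si1AK against SiC (3) numbered 5 with slide as a block, 5 in the authors' table, 14 with array weights, 1 with only the compared groups, 0 on either slide, 5 without both arrays of raised signal and 2 to 3 with single arrays left out. Those lower with Si1AK against NT (7) numbered 12 with slide as a block, 3 without the filter, 4 with probes averaged, 16 with array weights, 11 with only the compared groups, 0 on either slide, 15 without both raised arrays and 3 to 12 with single arrays left out. Those with Si2AK against NT (18 lower, 0 higher) numbered 5 on either slide and 15 to 24 with single arrays left out, and 1 was higher under quantile normalization and 0 to 1 with single arrays left out. Those with Si2AK against Si1AK (8 lower, 1 higher) numbered 5 without the filter and with probes averaged, 0 on either slide and 5 to 9 with single arrays left out; the higher one numbered 0 without the filter and on either slide, and 0 to 1 with single arrays left out. Counts over all genes moved too. With Si1AK against SiC 260 genes were lower as reported, 480 with slide as a block and 1693 with array weights. They were 371 in the authors' table, 72 with only the compared groups and 327 without both raised arrays. With Si2AK against SiC 997 genes were lower as reported, 1270 with slide as a block and 1760 with array weights. They were 1374 after quantile normalization, 1375 in the authors' table and 917 with probes averaged. Without the filter they were 534, and with only the compared groups 19. With Si1AK against NT they were 648 as reported, 1060 with slide as a block, 1802 with array weights and 1607 without both raised arrays. With Si2AK against NT they were 1640 as reported, 2004 with slide as a block and 1989 with array weights. Fits within slides have fewer arrays; the cause of the other changes was not tested.

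The labels do not say that replicate numbers mark a shared batch. Deviations of same-numbered arrays correlated between -0.693 and 0.735, and 5 of 14 arrays correlated best with their own number. With the replicate block, members lower were 17 (Si2AK against SiC), 3 (Si1AK against SiC), 20 (Si2AK against NT), 6 (Si1AK against NT) and 8 (Si2AK against Si1AK). Of all 21300 genes, 957, 209, 1396, 652 and 1193 were lower in the same order. Array weights were 0.281 for Si2AK replicate 2 and 0.097 for SiC replicate 1. Dim probes on these arrays limit what can be said of Brca1, Fancd2 and Fancg.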
